A study of Mus musculus with 6 samples.

Results

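The nuclear-encoded subunits of the mitochondrial respiratory chain were examined in RNA sequencing data from primary lung fibroblasts of wild-type mice. Genes were taken as members when their symbol named a subunit of complex I (Nduf a, b, c, s and v genes), complex II (Sdha to Sdhd), complex III (Uqcr genes), complex IV (Cox genes of the families numbered 4 to 8) or complex V (Atp5 genes) and the annotation called them protein-coding. This gave 82 genes of the 45706 in the table: 37 of complex I, 4 of complex II, 8 of complex III, 16 of complex IV and 17 of complex V. A further 10 genes matched the symbols but were left out as pseudogenes of the annotation. The symbols leave out some true subunits, among them Cox4i1, Cyc1 and Ndufab1, which were followed as a separate list. The cells grew out of collagenase- and trypsin-digested lungs in medium with serum, and were either left as controls (3 samples) or given recombinant DKK1 of the mouse sequence (30 ng/ml, 24 hours; 3 samples). The study asked which genes DKK1, a secreted antagonist of canonical Wnt signalling that acts through LRP5 and LRP6, changes in these cultured cells. No allele or vehicle is named for either group, and whether samples came from separate animals or cultures is not stated, so p-values measure only the spread between these samples, which may be technical.

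The respiratory chain sits in the inner mitochondrial membrane. Complexes I and II pass electrons from NADH and succinate to ubiquinone, complex III passes them on to cytochrome c, complex IV reduces oxygen, and complex V makes ATP with the proton gradient that complexes I, III and IV build. Most subunits are encoded in the nucleus and imported, while a small set in complexes I, III, IV and V is encoded by mitochondrial DNA. Transcription of the nuclear genes is known to depend on NRF1, the ETS factor GABP, YY1 and the estrogen-related receptors, helped by coactivators of the PGC-1 family, and complex IV has isoforms that differ between heart and skeletal muscle, testis and other tissues.

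Libraries held 22.6 to 34.7 M counts. Levels are given in CPM (each count scaled to its whole library's total), where a floor of 3 counts stands for 0.0864 to 0.133 CPM and covers counting error only. Fibroblast markers summed to 15695 to 17269 CPM in control libraries and 14424 to 16213 CPM in DKK1 libraries. Smooth muscle and myofibroblast markers summed to 8971 to 10031 CPM in controls and 7676 to 8966 CPM with DKK1, and Myh11 was called lower in the comparison of unpaired samples (log2 fold change -0.30, edgeR quasi-likelihood test, adjusted p = 0.00387), as were all 5 of these markers with the replicate number as a block. With that block 2 of 9 fibroblast markers were called higher and 5 lower, and of 4 tested leukocyte markers 1 was called higher (Adgre1) and 1 lower (Csf1r). Over all tested genes, the block called 4.96% higher and 4.46% lower, against 0.697% and 0.198% in the unpaired comparison. Epithelial markers stood at 125 CPM in replicate 3 of each group against 37.6 to 46.9 CPM in the other 4 libraries, and leukocyte, endothelial and mesothelial markers were likewise higher in both replicate 3 libraries. Red cell markers (Hba-a1 and Hbb-bs) summed to 0.355, 0.678 and 0.801 CPM in controls and 6.27, 2.57 and 0.602 CPM with DKK1, so DKK1 replicates 1 and 2 lay above all controls. In bulk RNA, fewer cells of a type and less RNA per cell cannot be told apart. The part of these cell markers in the values below was not tested.

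No member passed the test in either direction. Of the 82 members, 77 had enough counts to be tested, and 0 of 77 were called higher or lower with DKK1 (edgeR quasi-likelihood test, unpaired samples, Benjamini-Hochberg adjusted p under 0.05), where 0.895% of the 14635 genes tested were called, 0.697% higher and 0.198% lower. With the replicate number as a block, 0 of 77 were called again, while 9.42% of all genes were called, 4.96% higher and 4.46% lower. DESeq2 and limma-voom called 0 members as well. At an unadjusted p under 0.05 there was 1 member of 77 in the unpaired fit (10.6% of all genes) and 3 of 77 with the block (20.7% of all genes). That 1 member was Ndufa4l2, and the 3 were Ndufa4l2, Uqcrfs1 and Uqcrq.

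The levels of most members with DKK1 were close to those in control. Their median log2 fold change was 0.01, with an interquartile range from -0.02 to 0.03, 45 positive and 32 negative. Over all tested genes the median was -0.00 and the interquartile range ran from -0.08 to 0.07. Of the 77 members, 73 (94.8%) lay within 0.1 of zero on the log2 scale, a change of less than 1.07-fold, as did 61.4% of all tested genes. Members were also expressed higher than most genes (median 60.1 CPM against 20.4 CPM) and had smaller standard errors (median 0.0458 against 0.0773 on the log2 scale), and the part of these differences in the narrower spread was not tested. The 95% interval of the fold change stayed inside 1.5-fold in either direction for 74 of 77 members, which bounds how large a change these data leave room for. The 3 exceptions were the low-count genes Ndufa4l2, Cox6b2 and Atp5s.

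**Figure D1:**
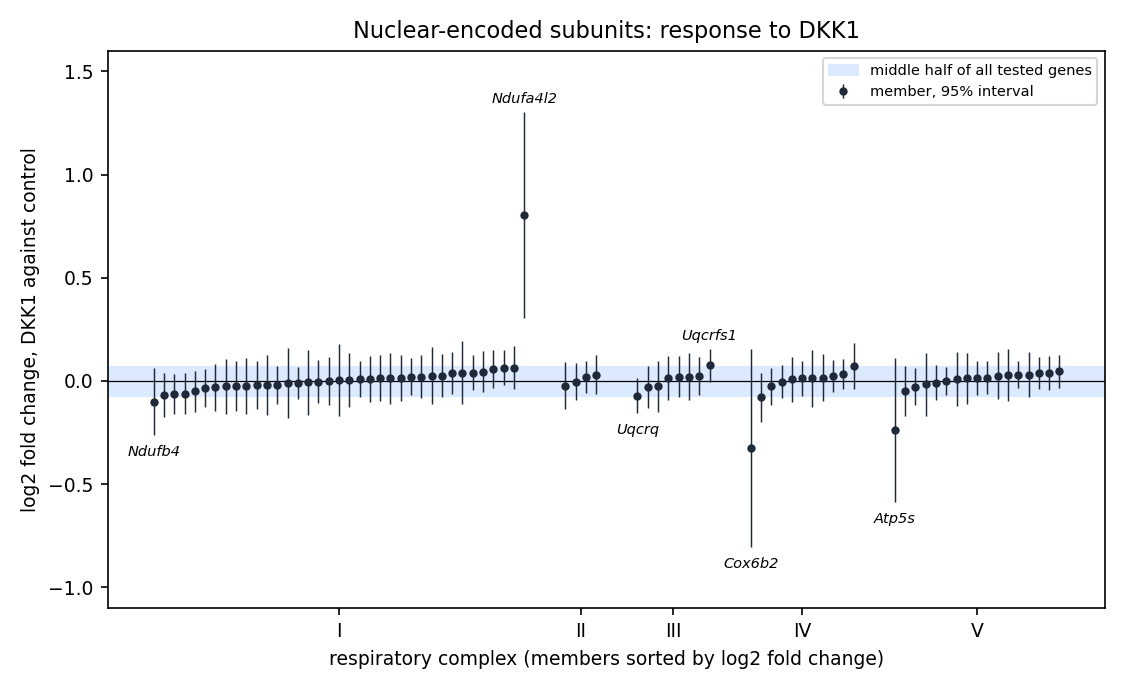
Log2 fold change (DKK1 against control, y axis) of the 77 tested members, sorted by fold change within complexes I to V on the x axis. Points are edgeR estimates from unpaired samples, bars are approximate 95% intervals, and the band is the interquartile range of all 14635 tested genes, from -0.08 to 0.07. All but 4 points lie within 0.1 of zero, and Ndufa4l2 stands apart at 0.80.

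Groups that do not overlap, meaning that every DKK1 library lay on one side of every control library, were found for 8 of 77 members (10.4%) and for 16.5% of all tested genes. Of these, 6 were higher with DKK1 (Ndufa4, Ndufa4l2, Ndufv3, Uqcrfs1, Cox6a1 and Atp5a1) and 2 were lower (Ndufb4 and Uqcrq), where 9.40% and 7.14% of all genes were. Set against each other by replicate number, 15 members (19.5%) were higher with DKK1 in all 3 pairs, against 22.3% of all genes, and 7 (9.09%) were lower in all 3, against 19.5%. On neither count did the share of members exceed that of all genes.

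Promoters of members are shown here, 1 from each complex, to show the letters of the known regulators of these genes beside levels that stayed close to control. All are from members that hold such letters, which were found in 21 of 68 members (30.9%), so they are not typical of the members. Sequences are from RefSeq (GRCm38.p6) and run 5′ to 3′ on the gene's strand, from 250 bases before to 50 bases after the annotated start. Capitals mark matches, on either strand, to the letters searched for NRF1 (GCGCATGCG), ETS factors such as GABP (CCGGAAGT), YY1 (AAGATGGCG) and the estrogen-related receptors (TCAAGGTCA).
Ndufs7, chr10:80249199-80249498, plus strand: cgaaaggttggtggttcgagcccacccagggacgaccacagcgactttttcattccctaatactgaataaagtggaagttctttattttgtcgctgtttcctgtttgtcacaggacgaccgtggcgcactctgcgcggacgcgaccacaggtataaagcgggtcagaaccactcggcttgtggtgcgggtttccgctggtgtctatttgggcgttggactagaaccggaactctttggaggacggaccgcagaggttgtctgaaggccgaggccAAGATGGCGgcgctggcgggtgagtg
Sdhd, chr9:50603800-50604099, minus strand: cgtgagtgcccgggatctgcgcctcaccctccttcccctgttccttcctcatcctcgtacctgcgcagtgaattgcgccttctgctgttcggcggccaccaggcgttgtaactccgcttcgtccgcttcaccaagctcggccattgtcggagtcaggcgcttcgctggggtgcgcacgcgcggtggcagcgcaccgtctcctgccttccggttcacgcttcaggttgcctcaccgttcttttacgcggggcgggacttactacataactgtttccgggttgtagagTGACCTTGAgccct
Uqcr11, chr10:80406772-80407071, minus strand: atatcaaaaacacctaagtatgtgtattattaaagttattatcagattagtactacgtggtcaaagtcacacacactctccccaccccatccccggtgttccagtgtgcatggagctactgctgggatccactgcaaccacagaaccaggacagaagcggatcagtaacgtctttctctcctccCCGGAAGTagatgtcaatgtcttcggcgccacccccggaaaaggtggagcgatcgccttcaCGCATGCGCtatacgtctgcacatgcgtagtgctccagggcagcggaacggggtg
Cox6a1, chr5:115348909-115349208, minus strand: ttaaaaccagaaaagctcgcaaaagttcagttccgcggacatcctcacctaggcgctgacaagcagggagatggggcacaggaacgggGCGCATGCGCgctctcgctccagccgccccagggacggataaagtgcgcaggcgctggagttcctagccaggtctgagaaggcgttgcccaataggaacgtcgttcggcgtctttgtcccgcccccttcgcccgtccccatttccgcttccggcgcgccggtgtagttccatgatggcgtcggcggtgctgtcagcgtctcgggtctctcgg
Atp5j, chr16:84834927-84835226, minus strand: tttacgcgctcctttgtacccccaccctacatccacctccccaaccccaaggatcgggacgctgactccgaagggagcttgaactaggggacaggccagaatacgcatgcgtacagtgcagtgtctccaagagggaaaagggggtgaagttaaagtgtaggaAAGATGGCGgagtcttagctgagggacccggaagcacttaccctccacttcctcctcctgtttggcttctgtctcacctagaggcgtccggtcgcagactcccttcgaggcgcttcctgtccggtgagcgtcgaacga
Ndufs7 and Atp5j hold the YY1 letters (Atp5j at the start shown and not at the other of its 2 annotated starts), Sdhd those of the estrogen-related receptors on the opposite strand, Uqcr11 those of ETS factors and NRF1, and Cox6a1 those of NRF1, whose near-palindrome matches on both strands over 1 shared stretch. None of the 4 motifs' matches overlapped a match of another motif in these 5 windows. The 5 genes had log2 fold changes from -0.05 (Ndufs7) to 0.04 (Cox6a1).

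Of the 82 members, 68 were found in the promoter table by symbol or gene ID, and 14, Ndufa4l2 among them, were not. The NRF1 letters were in 8 of the 68 members (11.8%) against 1.95% of the 27025 genes in the table, the YY1 letters in 7 (10.3%) against 1.64%, the ETS letters in 5 (7.35%) against 4.31%, and the receptor letters in 2 (2.94%) against 0.466%. At least 1 of the 4 motifs was present in 21 members (30.9%) and in 7.93% of all genes, which include noncoding ones. A match is a description of the letters and not evidence of binding.

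Complex I takes electrons from NADH at its matrix arm. Its 7 nuclear-encoded core subunits, which hold the flavin and iron-sulfur clusters or the quinone site, had a median log2 fold change of 0.00 and none was called. Ndufs1, the largest core subunit and carrier of iron-sulfur clusters, had 86.8, 90.7 and 89.4 CPM in the control libraries and 90.1, 93.5 and 91.9 CPM with DKK1, the highest change of the core (log2 fold change 0.04, SE 0.0366, edgeR adjusted p = 0.776). The groups overlapped by a narrow margin. Ndufs7, at the end of the cluster chain next to ubiquinone, had the lowest change of the core (-0.05, SE 0.0436, edgeR adjusted p = 0.763), with 42.2, 41.0 and 41.6 CPM in controls and 39.6, 39.2 and 42.2 CPM with DKK1. Here replicates 1 and 2 were lower with DKK1 and replicate 3 was not. Ndufs3, Ndufs8, Ndufv1 and Ndufv2 (the last 2 are the flavoprotein part that binds NADH) had log2 fold changes from -0.02 to 0.02, with SE from 0.0392 to 0.0575. Their control means ranged from 27.5 CPM for Ndufs8 to 76.1 CPM for Ndufv1.

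The 30 other complex I members, mostly accessory subunits that stabilize the complex, had a median log2 fold change of 0.01. Leaving Ndufa4l2 aside, they ranged from -0.10 (Ndufb4, a membrane arm subunit) to 0.06 (Ndufa9, a subunit near the quinone site, and Ndufa4). Ndufb4 had 12.4, 12.6 and 11.9 CPM in controls and 11.2, 11.7 and 11.6 CPM with DKK1, so all DKK1 libraries were below all controls, but the change missed the threshold (SE 0.0711, edgeR adjusted p = 0.696). Its counts were fractional in all 6 libraries, because the counting program divided reads between loci, and a near copy, Ndufb4c, had 16.9 to 19.6 CPM, more than Ndufb4 itself. Ndufb4c was left out because GENCODE calls it a processed pseudogene, while RefSeq calls it protein-coding; its log2 fold change was -0.10 (edgeR adjusted p = 0.666). The split of reads between them makes both values uncertain. Ndufa4, listed here by its symbol although the protein is now known as part of complex IV, had 78.9, 82.5 and 82.7 CPM in controls and 84.7, 83.9 and 87.7 CPM with DKK1 (log2 fold change 0.06, SE 0.0374, edgeR adjusted p = 0.634).

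Ndufa4l2 (ENSMUSG00000040280, GRCm38 chr10:127514967-127517154, plus strand) had the largest change of any member. It is the hypoxia-induced relative of Ndufa4, a known target of HIF-1 that is also expressed in pericytes. Its counts were 19, 22 and 19 in controls and 37, 51 and 36 with DKK1, or 0.842, 0.778 and 0.839 CPM against 1.29, 1.47 and 1.56 CPM. Each DKK1 library was above each control library, in all 3 pairs. The fitted change was 1.75-fold (log2 fold change 0.80, SE 0.22, 95% interval 0.31 to 1.30) and did not pass after adjustment over all genes (edgeR, unadjusted p = 0.00568, adjusted p = 0.195; 0.0682 with the replicate block). With one sample left out, its log2 fold change stayed between 0.75 and 0.88. Its gene lies next to Shmt2 on the opposite strand, and 32 of its 1095 exon bases are shared with that gene, so reads there cannot be assigned without strand, which is not stated. Shmt2 itself had 106 to 116 CPM in all libraries and a log2 fold change of -0.02. Per transcript length, Ndufa4l2 made up 0.494% of the summed level of Ndufa4 and Ndufa4l2 in controls and 0.823% with DKK1, so that the pair was nearly all Ndufa4 in both groups.

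**Figure D2:**
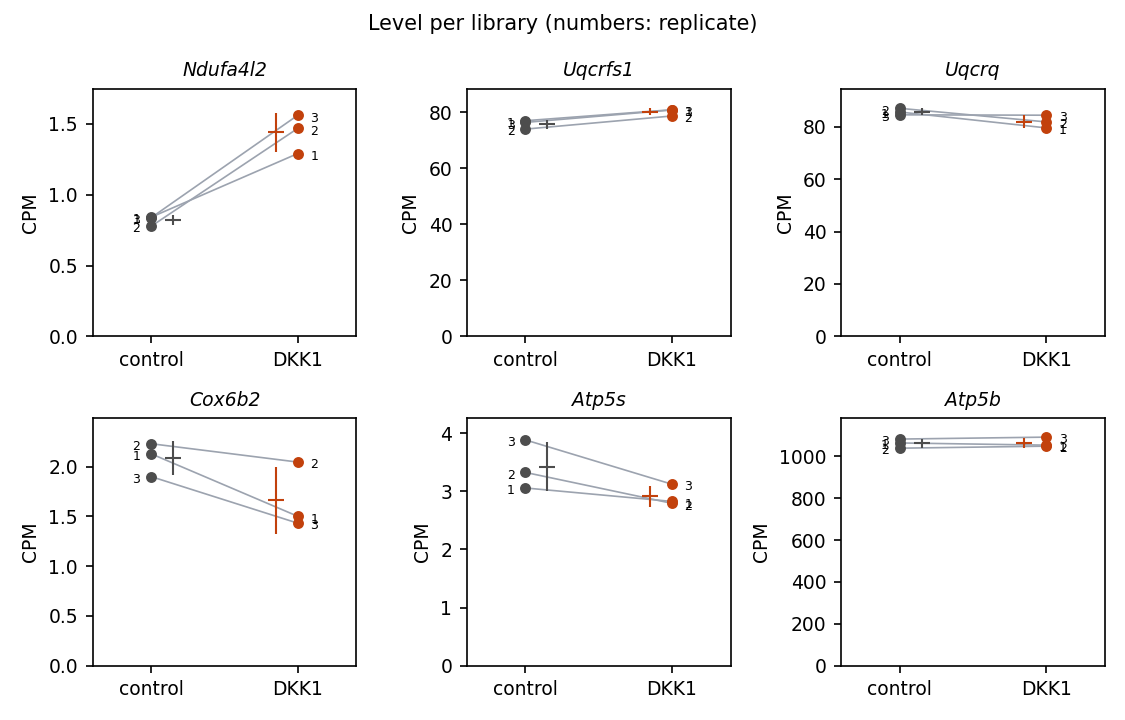
CPM (y axis, from 0) in each library for 6 members, with control on the left and DKK1 on the right of each panel, small numbers giving the replicate and lines joining equal numbers. Crosses beside the points are the mean and SD of 3 libraries. Ndufa4l2 lies at 0.778 to 0.842 CPM in controls and 1.29 to 1.56 CPM with DKK1, a difference that did not pass the test, while Atp5b lies between 1039 and 1092 CPM throughout.

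Complex II, which is also succinate dehydrogenase of the tricarboxylic acid cycle, has no mitochondrially encoded subunit. Sdha, the flavoprotein, had 207, 209.8 and 222 CPM in controls and 217, 216 and 215 CPM with DKK1 (log2 fold change 0.02, SE 0.0342). Sdhb, the iron-sulfur subunit, had 73.0, 70.3 and 77.3 CPM in controls and 74.3, 75.1 and 76.5 CPM with DKK1 (0.03, SE 0.0419). The membrane anchors moved as little: the log2 fold change was -0.00 for Sdhc (SE 0.0390) and -0.02 for Sdhd (SE 0.0499). The groups overlapped for each of the 4 subunits, and edgeR's adjusted p lay between 0.876 and 0.991.

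Complex III held the 2 members besides Ndufa4l2 that reached an unadjusted p under 0.05 with the block. Uqcrfs1, the Rieske iron-sulfur protein, had 76.9, 73.9 and 76.3 CPM in controls and 80.8, 78.6 and 80.8 CPM with DKK1 (log2 fold change 0.08, SE 0.0352, edgeR adjusted p = 0.517; 0.168 with the replicate block). Every DKK1 library was above every control library. Uqcrq, a small subunit, had the opposite sign, with 85.6, 87.0 and 84.5 CPM in controls and 79.6, 81.8 and 84.4 CPM with DKK1 (-0.07, SE 0.0376, edgeR adjusted p = 0.583; 0.219 with the block). The lowest control and the highest DKK1 library of Uqcrq were nearly equal. The core proteins Uqcrc1 and Uqcrc2 had log2 fold changes of -0.03 and 0.02.

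For complex IV, transcript levels of alternative isoforms in these cultures were compared. Cox6a1, the form of the Cox6a subunit found outside muscle, had 169, 174 and 171 CPM in controls and 179, 174 and 176 CPM with DKK1 (log2 fold change 0.04, SE 0.0318, edgeR adjusted p = 0.773). Its muscle counterpart Cox6a2 had 6 to 20 counts per library and was too low to test. Per transcript length, Cox6a1 made up 99.8% of the pair in each group, and Cox4i1, which the symbol rule does not take in, 99.8% of Cox4i1 and Cox4i2. In the Cox7a group, Cox7a2l, known for its part in supercomplex assembly, held 54.4% in controls and 56.2% with DKK1, Cox7a2 held 45.3% and 43.6%, and the heart and muscle form Cox7a1, with 1 to 9 counts per library, 0.237% and 0.226%. Cox7a2 had 56.7, 54.0 and 58.5 CPM in controls and 49.96, 55.0 and 55.6 CPM with DKK1, with overlapping groups (-0.08, SE 0.0526, edgeR adjusted p = 0.679).

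Cox7b2, Cox8b and Cox8c had 0 counts in all 6 libraries, which allows a level of up to 0.0864 to 0.133 CPM in a library. Cox8a and Cox7b were thus the detected forms of their groups. Cox7b had the highest fold change of complex IV, with 54.2, 55.8 and 61.2 CPM in controls and 59.0, 60.3 and 61.3 CPM with DKK1 (log2 fold change 0.07, SE 0.0495, edgeR adjusted p = 0.686). Control replicate 3 was as high as the DKK1 libraries, so the groups overlapped. Cox6b2, known as the testis form of Cox6b, had 2.13, 2.23 and 1.90 CPM in controls and 1.5003, 2.04 and 1.43 CPM with DKK1. This was the lowest fold change among all members (-0.32, SE 0.21, 95% interval -0.80 to 0.16, edgeR adjusted p = 0.670), and the DKK1 replicate 2 library lay inside the control range. Its widespread counterpart Cox6b1 held 97.7% of the pair in controls and 98.1% with DKK1.

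**Figure D3:**
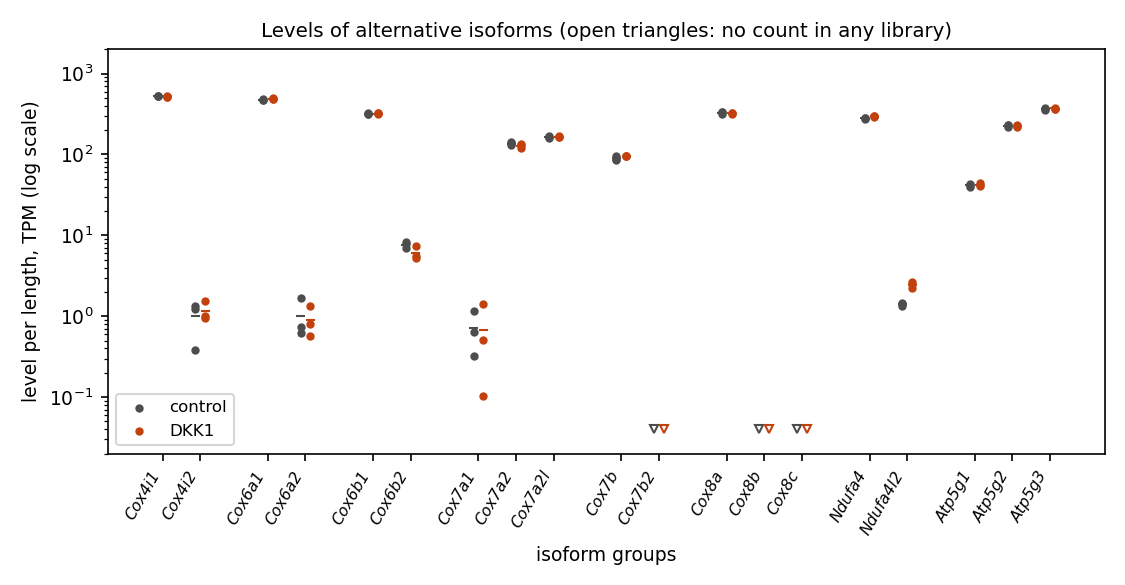
Level per transcript length (TPM, log axis) of the members of each isoform group along the x axis, with 1 point per library (control grey, DKK1 orange) and short lines for means. Open triangles mark Cox7b2, Cox8b and Cox8c, which had no count in any library and are drawn at an arbitrary height. In most groups 1 isoform lies far above the others, except for Cox7a2 with Cox7a2l and the c-ring genes.

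Complex V contained the most abundant member, Atp5b, the catalytic beta subunit of the F1 head. It had 1064, 1039 and 1083 CPM in controls and 1054, 1049 and 1092 CPM with DKK1, a log2 fold change of -0.00 (SE 0.0297, 95% interval -0.07 to 0.07, edgeR adjusted p = 0.996). Per transcript length it was also the highest member, at 882 ± 15.5 TPM in controls (SD, n = 3). Its partner Atp5a1, the alpha subunit, had 547, 555 and 541 CPM in controls and 561, 559 and 563 CPM with DKK1, without overlap between the groups but with a log2 fold change of only 0.03 (SE 0.0290, edgeR adjusted p = 0.799). The 5 F1 head genes had a median log2 fold change of 0.03, the 4 genes of the peripheral stalk, which holds the head still, also 0.03, and the 3 c-ring genes 0.01. Atp5f1, the b subunit of the stalk, had the highest fold change of complex V (0.05, SE 0.0351, edgeR adjusted p = 0.719), and its counts were fractional in all libraries.

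The c-ring genes Atp5g1, Atp5g2 and Atp5g3 encode the same mature protein behind different import signals. Per transcript length, Atp5g3 gave 57.7% of their sum in controls, Atp5g2 35.7% and Atp5g1 6.58%. Atp5s, coupling factor B and a loosely attached factor rather than a core part of the enzyme, had the lowest fold change of complex V, with 3.06, 3.33 and 3.88 CPM in controls and 2.83, 2.79 and 3.12 CPM with DKK1 (-0.24, SE 0.153, 95% interval -0.59 to 0.11, edgeR adjusted p = 0.665). All 3 pairs were lower with DKK1, but DKK1 replicate 3 lay inside the control range.

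Compared per transcript length, the control medians over all members were 87.4 TPM in complex I, 130.2 TPM in complex II, 153 TPM in complex III, 149.8 TPM in complex IV and 222 TPM in complex V. Complex IV includes 5 untested genes at or near 0, and its 11 tested members alone had a median of 196 TPM. With the principal transcript's length in place of the median one, the median of complex IV was 221 TPM over all members and 285 TPM over the tested ones, and that of complex V, whose members were all tested, was 284 TPM. The levels of single genes depended on that length in places: Uqcrc1, the highest of complex III at 462 TPM, had 217 TPM with the principal transcript, and Ndufs1 had 218 and 78.6 TPM, while Atp5b stayed the highest member by both.

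Summed over all 82 members, the subunit transcripts took 0.661%, 0.653% and 0.667% of the counts of the control libraries and 0.656%, 0.664% and 0.679% of the DKK1 libraries. The means differed by 0.935%, less than the SD between libraries of either group. By complex, the summed level with DKK1 was between 0.272% (complex III) and 1.26% (complex V) higher in mean, and the groups overlapped in each. The 13 mitochondrially encoded subunits of the same complexes took 1.354%, 1.423% and 1.411% in controls and 1.475%, 1.545% and 1.503% with DKK1, so these groups did not overlap. The unpaired edgeR test called 0 of the 13, with 8 at an unadjusted p under 0.05, which 10.6% of all tested genes reached. Other unpaired fits called 3 higher without the low-count filter, 3 in DESeq2, 1 after offsets for GC content and length and 1 without DKK1 replicate 2. The replicate block called 9 of 13 higher, where 4.96% of all tested genes were (mt-Atp6, mt-Co1, mt-Co2, mt-Cytb, mt-Nd1, mt-Nd2, mt-Nd4, mt-Nd5 and mt-Nd6); with the same offsets, the block called 4. Those offsets lowered the median log2 fold change of the 13 from 0.12 to 0.06. The ratio of mitochondrially to nuclear-encoded subunit counts was 2.05, 2.18 and 2.12 in controls and 2.25, 2.33 and 2.21 with DKK1.

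**Figure D4:**
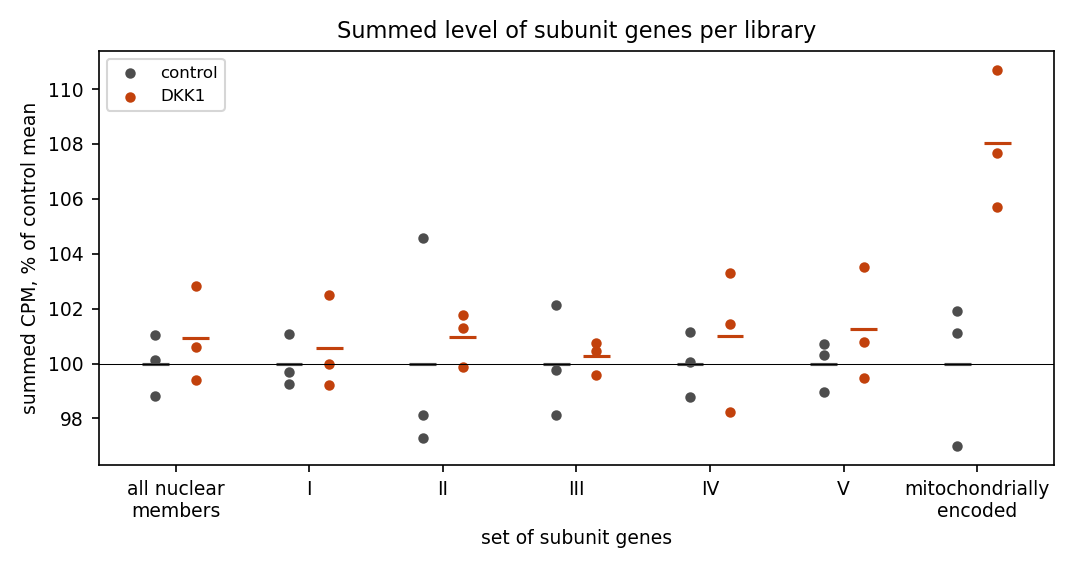
Summed CPM of the members, of each complex and of the 13 mitochondrially encoded subunits in each library (control grey, DKK1 orange), as percent of the control mean on the y axis, which does not start at 0; lines are group means. The groups overlap for all nuclear-encoded sets, while the 3 DKK1 libraries lie above the 3 controls for the mitochondrially encoded set.

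Functionally related genes were followed as lists. Among 7 further genes of the chain that the symbol rule does not take in, 0 were called in either edgeR fit, at a median log2 fold change of 0.03. Not all of them are subunits, as Cycs encodes cytochrome c. Ndufab1, the acyl carrier subunit of complex I, had the smallest p (log2 fold change 0.08, SE 0.0362, edgeR unadjusted p = 0.048, adjusted p = 0.465). Of 58 tested assembly factors 0 were called in either fit, with a median of 0.01; 2 had an unadjusted p under 0.05 in the unpaired fit (3 with the block), Ndufaf3 of complex I (-0.28, edgeR adjusted p = 0.359) and Cox16 of complex IV (0.19, edgeR adjusted p = 0.426). Among 15 transcriptional regulators 0 were called in either fit, at a median of 0.01, and an unadjusted p under 0.05 was reached by 0 in the unpaired fit and 2 with the block. Nrf1 had 30.5 CPM with DKK1 against 32.1 CPM (-0.08, SE 0.0472), Gabpa 78.5 against 74.3 CPM (0.07, SE 0.0477), and the coactivator gene Ppargc1a was near the floor, at 0.212 to 0.709 CPM. The 17 enzymes of the tricarboxylic acid cycle had a median of 0.01 and 0 calls in either fit, with 0 at an unadjusted p under 0.05 in the unpaired fit and 1 with the block. Over all tested genes, an unadjusted p under 0.05 was reached by 10.6% in the unpaired fit and 20.7% with the block.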

How the data were processed

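RNA from 6 samples of mouse lung fibroblasts, 3 control and 3 given DKK1, was sequenced, and 1 table held all 6 samples. The authors deposited RSEM expected counts per gene, unscaled; per the submitters' processing notes STAR, RSEM and edgeR 4.2.1 were used with GRCm38 (mm10), and strand handling is not given in the sources used here. Expected counts divide reads among similar loci: 24 of 82 members had fractional values (tolerance 0.005) in at least 1 library. Symbols were found for 98.8% of gene IDs, and 98.7% of transcript IDs were in GENCODE release M21, which gave gene types, positions and overlaps; 28 members overlap a gene on the opposite strand.

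Counts were rounded, filtered (filterByExpr, minimum count 10; 14635 genes), scaled by TMM and compared with edgeR 4.0.16 under R 4.3.3 (glmQLFit and glmQLFTest, two-sided, 3 against 3, Benjamini-Hochberg over all tested genes). Standard errors are approximate, from the size of the log2 fold change over the root of F, and intervals use them. TPM used the median length of a gene's protein-coding transcripts. The replicate numbers come from the sample titles; same-numbered samples deviated together across genes (r = 0.27, 0.23 and 0.41; -0.28 to 0.08 between different numbers), so they were treated as pairs in the blocked fit. Within groups, replicates were distinct libraries (chi-square per degree of freedom 5.18 to 8.20). Named were members called in either fit, the extremes and the 2 highest levels per length in each complex, the Sdh genes, the complex I core, isoform groups and list genes called in either fit, except 1 gene whose own values are not reported here; list genes and members outside this rule were chosen after their values were seen. Members and lists were chosen with earlier results of these data known. Alternatives were DESeq2 1.42.0, limma-voom 3.58.1, other scalings, filters, equal depth, removal of GC and length trends (mgcv 1.9.3), unrounded counts and leaving out samples; those that combine the block with equal depth, DESeq2, other scalings or a left-out pair, and the principal transcript length, were chosen after seeing the data. The edgeR fit was tested on simulated data.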

Additional observations from a re-analysis of the deposited data

How the results depend on the processing

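No member was called in either direction in the unpaired fit or in all but 1 of the 24 other fits. The exception was the replicate block without replicate 1 of both groups, which called 1 member higher, Atp5d (log2 fold change 0.10, adjusted p = 0.034). The count of all genes called moved more: 131 in the unpaired fit, 329 without the low-count filter, 289 with DESeq2, 1379 with the replicate block, 1374 and 1381 with the block under library totals and DESeq2 size factors, 1327 with the block at equal depth, 1238 with the block and GC and length trends removed and 551 with the block in DESeq2. It was 36 to 139 with a sample left out (36 to 57 without replicate 1 or 2 of either group) and 1312, 612 and 1059 with the block and without pair 1, 2 or 3. With all 6 samples, the pairing by replicate number changed no call of a member.

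The members' median log2 fold change, 0.01, was -0.0062 with GC and length trends removed, -0.0048 with the block as well, -0.0062 to 0.018 with a sample left out and -0.0050 to 0.018 with a pair left out. For complex I it was -0.0096 and -0.010 with those trends removed, without and with the block, -0.0097 to 0.018 with a sample left out and -0.0035 to 0.012 with a pair left out. For complex III it was 0.022 with library totals, 0.0092 at equal depth and 0.0095 there with the block, -0.017 and -0.016 with the trends removed, -0.0065 to 0.013 with a sample left out and -0.0041 to 0.029 with a pair left out (0.0048 without pair 3).

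Signs of changes near zero were not stable. With library totals, no filter and equal depth Atp5b was at 0.0038, 0.0016 and 0.0039, and with the block at 0.0039 under equal depth and library totals. Sdhc was at 0.0010 and 0.00092 with library totals and equal depth, and at 0.0035 and 0.00090 with the block. Ndufs3 was at -0.0016 with DESeq2 size factors, -0.00092 with 10 counts in every sample, -0.0013 in DESeq2 (-0.00065 with the block), -5.4e-05 unrounded, and -0.0062 and -0.0048 with the trends removed. Removing the trends gave, without and with the block, -0.0036 and -0.0036 for Atp5g3, -0.0029 and -0.0028 for Cox6b1 and -0.039 and -0.039 for Ndufv2. Equal depth gave -0.0053 and -0.0055 for Cox6b1. Leaving out a sample gave -0.017 to 0.0058 for Atp5b, -0.034 to 0.051 for Atp5g1, -0.0057 to 0.033 for Atp5g3, -0.025 to 0.00092 for Cox4i1, -0.17 to 0.55 for Cox4i2, -0.0039 to 0.034 for Cox6b1, -0.032 to 0.048 for Ndufs3, -0.066 to 0.0074 for Ndufs8, -0.0062 to 0.040 for Ndufv1, -0.047 to 0.042 for Ndufv2, -0.00056 to 0.060 for Sdhb, -0.021 to 0.019 for Sdhc, -0.063 to 0.011 for Sdhd and -0.060 to 0.0065 for Uqcrc1. With the block and a pair left out the ranges were -0.0070 to 0.0081 for Atp5b, -0.069 to 0.069 for Atp5g1, -0.081 to 0.62 for Cox4i2, -0.011 to 0.054 for Cox6b1, -0.064 to 0.018 for Cox8a, -0.039 to 0.063 for Ndufs3 (-0.019 without pair 3), -0.066 to 0.012 for Ndufs8, -0.0061 to 0.035 for Ndufv1, -0.011 to 0.026 for Ndufv2, -0.0015 to 0.049 for Sdha, -0.027 to 0.024 for Sdhc and -0.068 to 0.013 for Sdhd. None of these genes was called in any of these fits, and the cause of each change was not tested. Depth limits Ndufa4l2, Cox6b2, Atp5s and the isoforms under 10 counts.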

Other observations

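Because Ndufa4l2 is a known HIF-1 target, 9 genes linked to hypoxia were looked up after their values were seen. Hif1a itself, the oxygen-regulated transcription factor subunit, was called higher with DKK1, at 476, 482 and 462 CPM against 368, 379 and 371 CPM in controls (log2 fold change 0.34, SE 0.0328, edgeR adjusted p = 0.00387). With the replicate block, Vegfa (0.27, adjusted p = 1.48e-05), Slc2a1 (0.18, adjusted p = 0.000124), Egln3 (0.49, adjusted p = 0.000621) and Bnip3 (0.32, adjusted p = 4.39e-05) were also called higher in edgeR, and none of these 4 was in the unpaired fit, where adjusted p lay between 0.0757 and 0.280. Pdk1, Ankrd37 and Adm were called in neither fit. Car9, another known HIF-1 target, was near the floor and too low to test. It lay lower with DKK1 without overlap, at 0.314, 0.230 and 0.260 CPM against 0.355, 0.354 and 0.496 CPM in controls. Among all tested genes, 7.14% lay lower without overlap. At so few counts the direction of Car9 is uncertain. Of 6 genes known from pericytes, also looked up after their values were seen, Kcnj8 was called higher and Cspg4 lower with the block, at log2 fold changes of 0.62 and -0.46 in the unpaired fit, which called neither. The others were Rgs5 (-0.24), Notch3 (-0.09) and Abcc9 (0.21), called in neither fit, and Higd1b, at or near 0 CPM in all libraries. With the block, 9.42% of all tested genes were called. Any link between these genes and Ndufa4l2 was not tested.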
